A study of Mus musculus with 6 samples.

Results

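The genes described here are 10 mouse genes that restrain signalling through the MAP kinase ERK: the tyrosine phosphatase gene Ptprr, the MAP kinase phosphatase genes Dusp1, Dusp2, Dusp4, Dusp5 and Dusp6, the Sprouty genes Spry1, Spry2 and Spry4, and Spred1. They were taken by symbol from 24421 symbols in the deposited count tables, and all 10 symbols were present. RNA was measured in 3 wild type libraries and in 3 labelled Lphn2 KO, homozygous for a knockout of the gene for the adhesion receptor latrophilin-2 (now Adgrl2). All 6 carry the labels C57BL/6N strain, whole embryo and embryonic day 9.5. No treatment is named, and the sources used here give neither the knockout allele nor whether a sample was 1 embryo, so the spread between samples may in part be technical. Ptprr was chosen by its measured difference between these groups in these counts, where it was known to be higher in the knockout, and the families around it were proposed with the same results in view. The differences between the groups in these 10 genes are therefore given as descriptions, with no p-value.

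Growth factor receptors signal through the GTPase RAS and the kinases RAF and MEK to ERK, which MEK activates by phosphorylating a threonine and a tyrosine. Dual-specificity MAP kinase phosphatases remove both phosphates, and tyrosine phosphatases with a kinase interaction motif, such as PTPRR, bind the kinase and remove the phosphate on tyrosine. Sprouty and Spred proteins act further up, between the receptor and RAF. Many of these genes are themselves induced by ERK, as negative feedback. In the midgestation embryo Dusp6 and the Sprouty genes are well known for marking sites of fibroblast growth factor signalling.

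The libraries were made from 500 ng of total RNA with a kit that reads tags from the 3' ends of transcripts, and total counts lay between 14476809 and 36213611. Levels are CPM, counts scaled to library size with TMM factors, and 3 values in a row stand for replicates 1, 2 and 3. Knockout replicates 2 and 3 stood apart from the other libraries, at 99.7 and 88.03 on the first principal component (54.1% of the variance) against -73.6 to -14.3. Adgrl2 itself stood at 7.56 to 15.96 CPM in wild type and 1.67 to 5.49 CPM in knockout libraries. These ranges were apart, but the adjusted p was 0.194 (edgeR quasi-likelihood test). Since 3' tags can lie outside a deleted part, which the labels do not name, this does not check the genotype. Although labelled whole embryo, all 6 libraries held markers of other sources in quantity: the summed level of 12 markers of maternal decidua was 18424 to 33544 CPM in wild type and 7416 to 12620 CPM in knockout libraries. Most of that sum was 1 gene, Prl8a2, a decidual prolactin named after its values were seen, with means of 20572 and 3171 CPM, while 9 of the 12 markers had higher means in the knockout. The 10 nervous system markers summed to 60.1 to 877.5 CPM and 12.1 to 53.4 CPM, and the 10 cardiac markers to 40.8 to 366 CPM and 7.73 to 22.3 CPM. Nkx2-5 had no count in wild type replicate 2 or in any knockout library and at most 0.523 CPM elsewhere. Fewer cells of a type and less RNA per cell cannot be told apart in such samples.

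The stretches in front of the start sites of Ptprr, Dusp2 and Spry1 are shown because these are the tested genes whose 3 knockout values all lay on the same side of the 3 wild type values. They come from RefSeq on GRCm38.p6 (mm10), which held windows for 8 of the 10 genes, 250 bases before to 50 bases after a start site. Capitals mark letters that match GGGCGG, the core of the Sp1 site, or the CArG box bound by serum response factor, through which RAS and ERK signals reach immediate early genes. Ptprr has 4 such windows, since its transcripts begin at several places. The first stretch lies in front of the first annotated start of the gene, and the second in front of an internal start.
Ptprr, chr10:116018113-116018187, plus strand: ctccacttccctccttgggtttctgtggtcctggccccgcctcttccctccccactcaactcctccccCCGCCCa
Ptprr internal start, chr10:116177008-116177257, plus strand: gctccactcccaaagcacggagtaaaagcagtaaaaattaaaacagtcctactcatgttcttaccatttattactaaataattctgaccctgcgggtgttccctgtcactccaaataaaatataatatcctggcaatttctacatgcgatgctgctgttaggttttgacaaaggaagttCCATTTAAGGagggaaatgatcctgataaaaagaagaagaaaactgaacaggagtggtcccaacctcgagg
Dusp2, chr2:127335909-127336158, plus strand: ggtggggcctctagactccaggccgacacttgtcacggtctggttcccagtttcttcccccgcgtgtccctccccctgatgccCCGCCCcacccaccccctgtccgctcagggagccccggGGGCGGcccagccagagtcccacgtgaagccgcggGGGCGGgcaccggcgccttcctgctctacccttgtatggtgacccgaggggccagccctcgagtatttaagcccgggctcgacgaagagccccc
Spry1, chr3:37639697-37639946, plus strand: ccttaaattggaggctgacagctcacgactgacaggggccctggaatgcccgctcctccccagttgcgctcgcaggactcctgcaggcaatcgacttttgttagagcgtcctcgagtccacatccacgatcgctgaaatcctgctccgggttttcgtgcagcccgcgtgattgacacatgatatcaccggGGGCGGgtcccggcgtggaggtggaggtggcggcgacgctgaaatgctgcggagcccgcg

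Searched on both strands, 7 motifs were looked for in the whole windows: the cyclic AMP response element TGACGTCA, the AP-1 site TGANTCA, the ETS site CCGGAAG, the CArG box, GGGCGG, the STAT site TTCCNGGAA and TATAAA. The internal Ptprr start had the CArG match CCATTTAAGG at base -71, and the window of a start 93 bases further on, which overlaps it, held the same match. A CArG match stood in 1.63% of 32851 RefSeq windows of this length. Dusp5 had a pair of them, CCATATTTGG and CCTTATATGG. Dusp1 had the full cyclic AMP response element, present in 1.79% of windows. GGGCGG was found in front of Ptprr, Dusp1, Dusp2, Dusp5, Spry1 and Spred1, and in 35.7% of all windows. No AP-1, ETS, STAT or TATAAA match was found in any of the 11 windows of these genes. Windows of Dusp6 and Spry2 held none of the 7 motifs. The guanine and cytosine content was 41.0% at the internal Ptprr start and 70.7% at Dusp2, against a median of 52.7% over all windows.

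Across the group, no common direction was seen: 6 of 8 tested genes had a positive and 2 a negative log2 fold change of knockout over wild type. Over the 13848 genes tested 46.6% were positive. The median was 0.25, against -0.04 over all genes tested. Ptprr and Dusp2 were read at a higher level in every knockout library than in any wild type library, Spry1 at a lower level in every one, and the other 5 overlapped. Groups did not overlap in 3 of 8 genes, against 21.5% of all genes tested (12.1% higher and 9.39% lower in the knockout). With edgeR 0 of the 8 had an adjusted p under 0.05, against 0.0505% of all genes, and 3 had an unadjusted p under 0.05, against 15.5%. DESeq2 called 3 of them, against 6.19% of all genes, and limma-voom 0, against 0.0505%. Because the genes were chosen with this contrast known, nothing is read from these counts. Dusp4 and Dusp5 had too few counts to be tested.

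**Figure D1:**
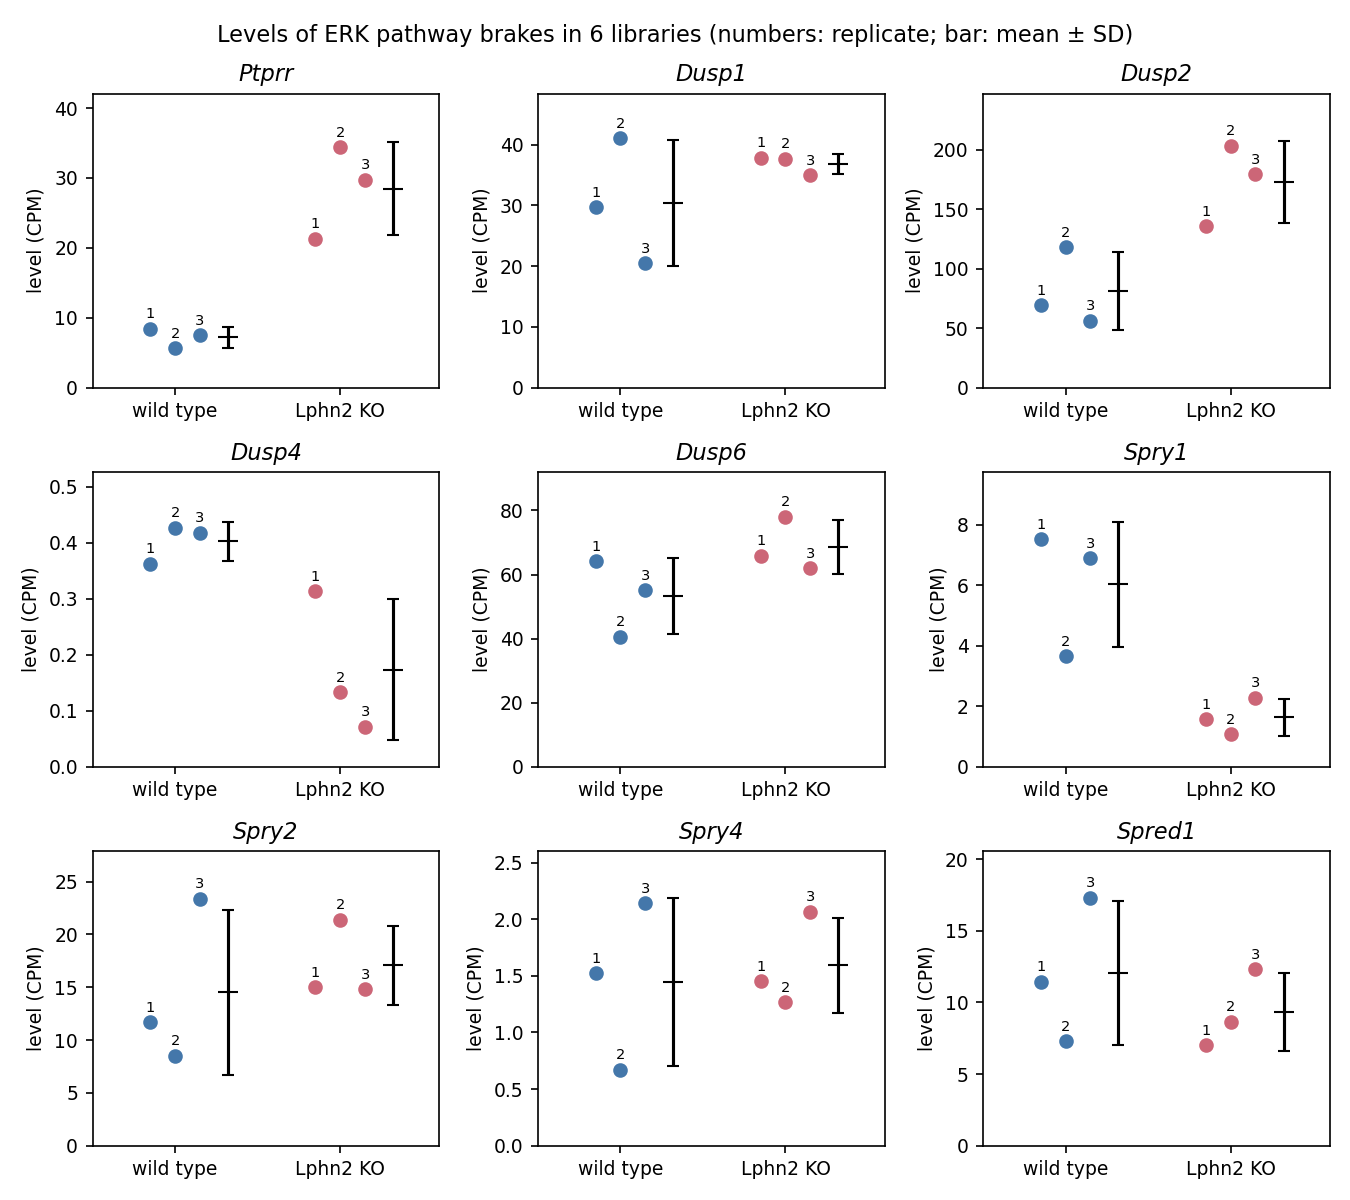
Level in CPM (vertical axis, from 0, a scale of its own in each panel) of 9 genes in 3 wild type (blue) and 3 Lphn2 KO (red) libraries, numbered by replicate, with mean and SD in black. Ptprr and Dusp2 have all red points above all blue points and Spry1 has all red points below. Dusp1, Dusp6, Spry2, Spry4 and Spred1 overlap. Dusp4 also has all red points below, but rests on 1 to 16 counts a library, and Dusp5 had no count.

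Ptprr (ENSMUSG00000020151.16, mm10 chromosome 10, 116018213 to 116274932, plus strand) encodes a receptor-type tyrosine phosphatase that binds ERK and is best known from neurons. The gene stood at 8.44, 5.61 and 7.499 CPM in the wild type libraries, against 21.3, 34.4 and 29.7 CPM in the knockout libraries. The lowest knockout library, replicate 1, lay well above the highest wild type library, replicate 1. Means were 7.18 ± 1.44 and 28.5 ± 6.64 CPM (SD, n = 3 each), a 3.95-fold difference or 1.98 ± 0.27 (SE) on the log2 scale. These values rest on 92 to 287 counts in wild type and 417 to 543 in knockout libraries, more in each knockout library than in the deepest wild type library. Its 7 annotated transcripts begin at different places and 3' tags do not tell them apart. The only gene annotated within its span, 4933416C03Rik on the opposite strand, had 8 counts in all 6 libraries together. The log2 difference was 1.59 with knockout replicate 1 as the only knockout library and 2.16 without it.

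The other 2 tyrosine phosphatases with a kinase interaction motif gave opposite signs. Ptpn7, the form of blood cells, stood at 4.56, 2.498 and 2.69 CPM in wild type and 5.02, 7.00 and 6.27 CPM in knockout libraries. These groups did not overlap, and the difference did not pass (log2 0.90 ± 0.36 SE, edgeR adjusted p = 0.305). Ptpn5, the form enriched in the brain, stood at 0.652, 0.122 and 9.46 CPM and at 0, 0 and 0.855 CPM. It was high in wild type replicate 3 alone, the library with the most nervous system markers (877.5 CPM), and its log2 difference of -3.68 became -0.55 without that library.

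The genes whose levels followed Ptprr most closely over the 6 libraries, among 9538 genes averaging at least 5 CPM, were Hdhd2 (Pearson r = 0.994), Mansc1 (0.993), Pdzrn3, a ubiquitin ligase (0.991), Mipep, a mitochondrial peptidase (0.991), and Vav1, an exchange factor of blood cells (0.989). The 6 points form 2 groups of 3, so a high r needs little more than a like step between groups, and it is given as a description. Each of these genes had a smaller step than Ptprr: 0.91, 1.44, 1.07, 0.62 and 0.97 on the log2 scale, none past the threshold (edgeR adjusted p of 0.166 to 0.303). Pdzrn3 stood at 25.1, 17.8 and 22.3 CPM in wild type and 35.96, 51.9 and 49.2 CPM in knockout libraries, with wild type replicate 2 lowest and knockout replicate 2 highest, as for Ptprr. Among the other ERK brakes, r with Ptprr was 0.80 for Dusp2, 0.79 for Dusp6, 0.46 for Spry2, 0.38 for Dusp1, 0.35 for Spry4, -0.18 for Spred1 and -0.83 for Spry1.

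Dusp2 (ENSMUSG00000027368.6, chromosome 2, 127336159 to 127338376, plus strand) encodes a nuclear MAP kinase phosphatase first found in activated lymphocytes. Its levels were 69.2, 118 and 56.3 CPM in the wild type libraries, against 136, 203 and 179.6 CPM in the knockout libraries. The groups did not overlap, although wild type replicate 2 came close to knockout replicate 1. Means were 81.2 ± 32.6 and 173 ± 34.2 CPM (SD, n = 3 each), 2.13-fold apart or 1.09 ± 0.31 (SE) on the log2 scale. The log2 difference was 1.23 without knockout replicate 1 and 0.76 with it as the only knockout library.

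Markers of uterine natural killer cells, granular lymphocytes of the maternal decidua, stood in the same order over the 6 libraries as Dusp2. The 8 markers, all tested, summed to 342, 492 and 224 CPM in the wild type libraries, against 693.5, 1155 and 921 CPM in the knockout libraries. All 8 had positive log2 fold changes, and 7 stood higher without overlap, against 12.1% of all genes. With edgeR 0 passed the threshold and 6 had an unadjusted p under 0.05, against 15.5%. Gzmc, a granzyme gene named after its values were seen as the most abundant of them in the knockout, averaged 141 ± 60.2 and 395 ± 115 CPM, and none of the 8 was at 0 in any library. For each 100 CPM of these markers, Dusp2 stood at 20.2, 24.0 and 25.2 CPM in wild type and at 19.6, 17.6 and 19.5 CPM in knockout libraries. Relative to them Dusp2 was thus 0.82-fold as high in the knockout, and the groups did not overlap in that direction. The marker sum itself was 2.62-fold as high. Every other tested brake except Ptprr also had a lower ratio, from 0.094-fold for Spry1 to 0.48-fold for Dusp1. Groups stood apart for Dusp1, Spry1 and Spred1 as well. Since the marker sum was higher in every knockout library, a gene with little change has a lower ratio by construction. The share of all genes that stand apart on this ratio was not counted, so nothing is read from these separations. The ratio was chosen after the values were seen. The ratio of Dusp2 to each of the other 9 marker lists had a higher mean in the knockout, from 1.495-fold for endothelium to 68.1-fold for trophoblast. For trophoblast and for somite and mesenchyme markers the groups overlapped. The trophoblast ratio was 1.14, 1.64 and 3.33 CPM in wild type and 2.95, 304 and 109 CPM in knockout libraries.

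Measured the same way, Ptprr stood at 2.47, 1.14 and 3.35 CPM for each 100 CPM of natural killer markers in wild type and at 3.07, 2.98 and 3.23 CPM in knockout libraries, and these groups overlapped. Within wild type Ptprr was lowest in replicate 2, where these markers were highest. Its ratio to each other marker list was higher in the knockout without overlap, from 2.56-fold for endothelium to 106-fold for trophoblast. For each 100 CPM of trophoblast markers it was 0.139, 0.0777 and 0.444 CPM in wild type and 0.462, 51.4 and 18.1 CPM in knockout libraries. The trophoblast sum was only 66.9 and 164 CPM in knockout replicates 2 and 3. The mean ratio to trophoblast was also 34.5-fold for Dusp1 and 31.9-fold for Dusp6, with groups that overlapped. The 12 endothelial markers also summed in the same library order as Dusp2, to 1959 to 3132 CPM in wild type and 3308 to 4060 CPM in knockout libraries, with all 12 log2 fold changes positive and 7 groups not overlapping, against the same 12.1%. For each 100 CPM of endothelial markers, Ptprr averaged 0.304 ± 0.110 and 0.780 ± 0.118 CPM and Dusp2 3.17 ± 0.517 and 4.74 ± 0.556 CPM (SD, n = 3 each), and for both genes the groups stayed apart. The part of these cell types in the differences was not tested.

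**Figure D2:**
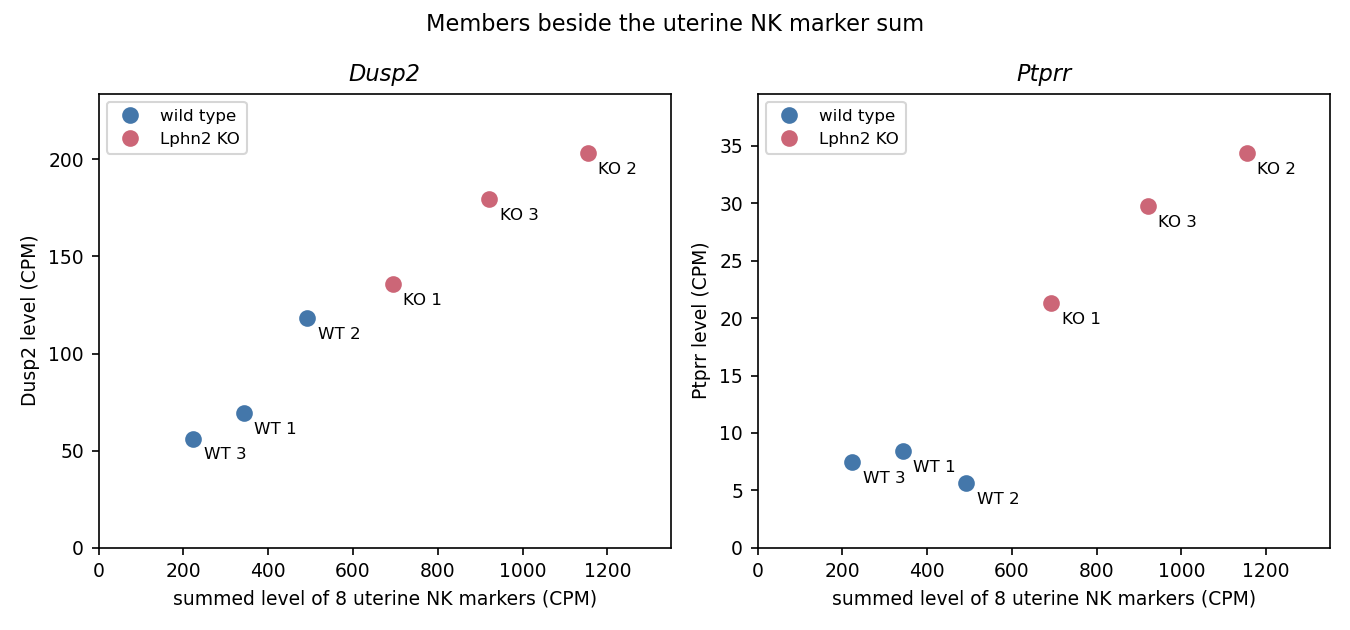
Level in CPM of Dusp2 (left) and Ptprr (right) against the summed level in CPM of 8 uterine natural killer markers, 1 point per library, wild type in blue and Lphn2 KO in red. Dusp2 and the marker sum stand in the same order over all 6 libraries; Ptprr lies between 5.61 and 8.44 CPM in wild type, lowest in replicate 2 where the marker sum is highest of the group.

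Dusp6 and Dusp1, the other MAP kinase phosphatase genes that could be tested, had groups that overlapped. Dusp6 (ENSMUSG00000019960.8, chromosome 10, 99263231 to 99267489, plus strand), a cytoplasmic phosphatase selective for ERK and a common readout of fibroblast growth factor signalling, stood at 64.1, 40.6 and 55.1 CPM in wild type and at 65.9, 78.0 and 62.0 CPM in knockout libraries. Wild type replicate 1 lay above knockout replicate 3, so the groups overlapped. The means of 53.3 ± 11.9 and 68.6 ± 8.34 CPM gave 0.36 ± 0.21 (SE) on the log2 scale. Dusp6 and Ptprr lie on the same chromosome, 16.8 Mb apart.

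Dusp1 (ENSMUSG00000024190.7, chromosome 17, 26505590 to 26562128, minus strand), an immediate early gene whose phosphatase also acts on JNK and p38, stood at 29.7, 41.1 and 20.5 CPM in wild type and at 37.8, 37.7 and 34.998 CPM in knockout libraries. The wild type libraries spanned the knockout ones, with replicate 2 above all 3 and replicate 3 below. Means were 30.4 ± 10.3 and 36.9 ± 1.61 CPM, 0.28 ± 0.26 (SE) on the log2 scale, and 0.054 without wild type replicate 3. The annotated span overlaps Ergic1 on the other strand only from 26561489 to 26562128, at the 5' end of both spans. The sources used here do not say how counting treated strand.

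The remaining dual-specificity genes had few counts or none. Dusp4, a nuclear phosphatase induced by ERK, had 10, 7 and 16 counts in the wild type libraries, against 8, 2 and 1 in the knockout libraries. As levels these were 0.362, 0.427 and 0.418 CPM against 0.314, 0.133 and 0.0713 CPM, too few counts for the fit. Each knockout level was thus below every wild type level, on few counts. Exact 95% Poisson intervals cover counting error only and are not scaled to depth. They ran from 2.81 to 14.4 counts in wild type replicate 2 and from 3.45 to 15.8 in knockout replicate 1. This pair, with the closest counts (7 and 8), could thus not be separated at this depth. The other pairs were not compared. Dusp5, a nuclear phosphatase selective for ERK, had 0 counts in all 6 libraries. With 3 counts taken as the limit that a count of 0 allows, this came to 0.0784 to 0.214 CPM depending on the library. Dusp5 was 1 of 5633 symbols without a count, as were Spry3, Erbb3, Erbb4, Fgf4 and Fgf5 among the pathway genes considered here. The sources used here do not say whether the counting could have assigned tags to it.

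The 3 Sprouty genes did not share a pattern. Spry1 (ENSMUSG00000037211.12, chromosome 3, 37639947 to 37644598, plus strand), a receptor tyrosine kinase antagonist best known from kidney development, stood at 7.54, 3.66 and 6.90 CPM in the wild type libraries. Its knockout levels were 1.57, 1.07 and 2.28 CPM, each below every wild type library. Means were 6.03 ± 2.08 and 1.64 ± 0.610 CPM (SD, n = 3 each), 3.68-fold apart or -1.88 ± 0.46 (SE) on the log2 scale. With knockout replicate 1 as the only knockout library it was -1.92.

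The 6 counts of Spry1 (208, 60 and 264 in wild type, 40, 16 and 32 in knockout libraries) were all multiples of 4, and RefSeq lists 4 transcripts for the gene. Divided by 4 they were 52, 15 and 66 against 10, 4 and 8. On that scale the exact 95% Poisson interval of wild type replicate 2, 8.40 to 24.7, overlapped that of knockout replicate 1, 4.80 to 18.4. These intervals are not scaled to depth, and those of the undivided counts were not compared. Because all its counts share the divisor 4, the counting error of Spry1 may be larger than its counts show. None of the other 8 genes with counts had a common divisor.

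Spry2 (ENSMUSG00000022114.5, chromosome 14, 105891947 to 105896819, minus strand), which limits growth factor signalling in many embryonic epithelia, stood at 11.7, 8.53 and 23.4 CPM in wild type and at 14.98, 21.4 and 14.8 CPM in knockout libraries. The highest value belonged to wild type replicate 3 and the lowest to wild type replicate 2, and the knockout libraries lay between. Its log2 difference of 0.23 ± 0.40 (SE) became 0.75 without wild type replicate 3 and -0.027 without replicate 2. Spry4 rested on 11 to 82 counts and stood at 1.52, 0.670 and 2.14 CPM and at 1.45, 1.27 and 2.07 CPM. Its log2 difference was 0.13 ± 0.59 (SE), with 0.52 and -0.19 without wild type replicates 3 and 2, and -0.084 without knockout replicate 3. For both genes leaving out 1 library was enough to turn the sign.

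Spred1 (ENSMUSG00000027351.14, chromosome 2, 117121374 to 117182279, plus strand), whose protein brings neurofibromin to the membrane to switch RAS off, stood at 11.4, 7.31 and 17.3 CPM in wild type and at 7.02, 8.67 and 12.3 CPM in knockout libraries. Again wild type replicate 3 was highest, and the groups overlapped. The log2 difference was -0.37 ± 0.38 (SE), -0.017 without wild type replicate 3 and -0.75 with knockout replicate 1 as the only knockout library. The related Spred2 and Spred3 stood at 7.91 ± 2.07 against 7.21 ± 0.311 CPM and at 2.11 ± 0.742 against 3.09 ± 0.811 CPM. Neither passed the threshold (edgeR adjusted p of 0.843 and 0.600), and Spred2 turned from -0.14 to 0.064 on the log2 scale without wild type replicate 3.

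Within the wild type group the brakes split in their order. Replicate 2 was the lowest wild type library for 6 of the 8 tested genes (Ptprr, Dusp6, Spry1, Spry2, Spry4 and Spred1) and the highest for the other 2, Dusp1 and Dusp2. Replicate 2 also had the lowest wild type sums of the 10 nervous system, 10 cardiac and 8 somite and mesenchyme markers (60.1, 40.8 and 19.3 CPM). Its decidual and natural killer sums were the highest of wild type (33544 and 492 CPM). So were its trophoblast, endothelial and macrophage sums (7215, 3132 and 583.5 CPM). Replicate 3, the highest wild type library for Spry2, Spry4 and Spred1, had the highest sums of the embryonic tissues (877.5, 366 and 103 CPM). Their part in these levels was not tested. In the knockout group replicate 2 was highest for 4 genes, replicate 3 for 3 and replicate 1 for Dusp1.

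**Figure D3:**
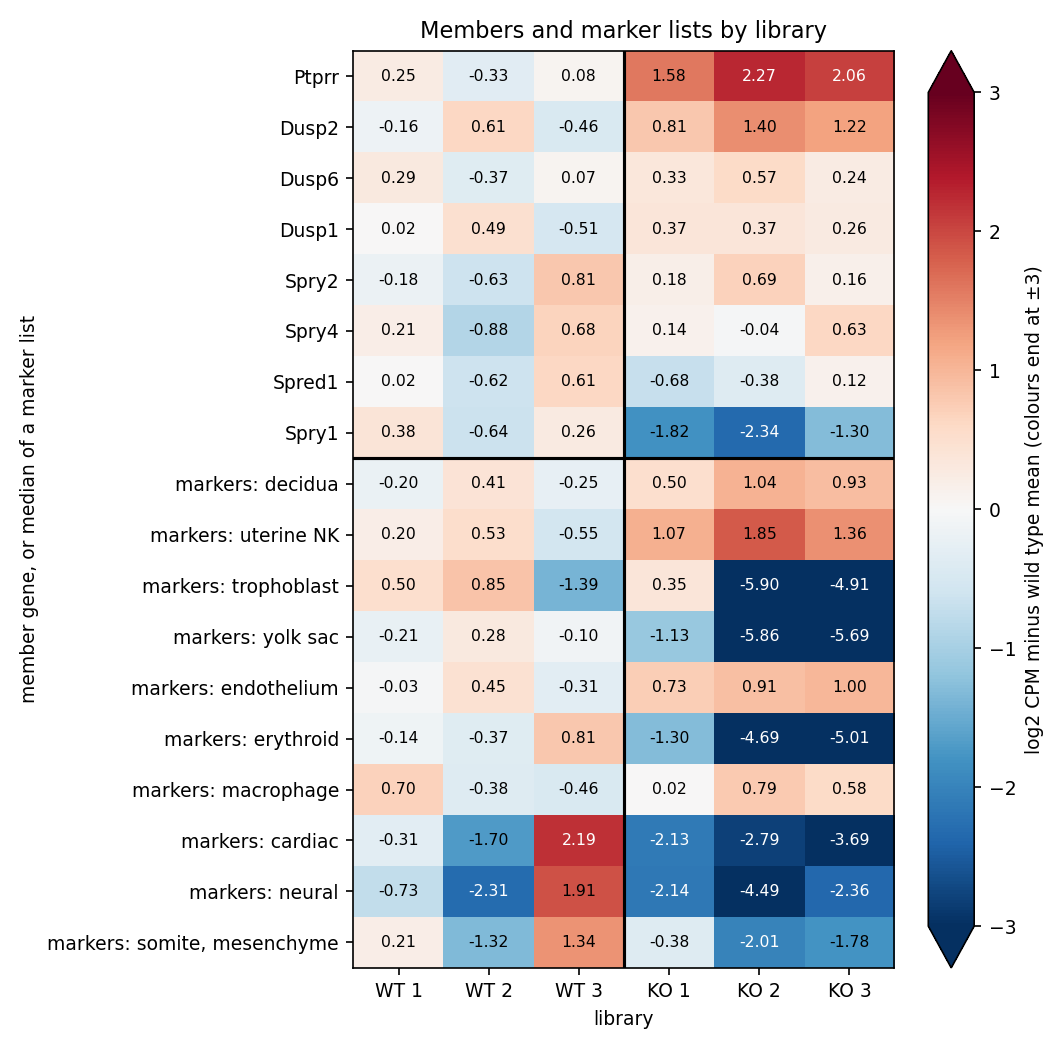
Each cell gives the log2 CPM of a gene (upper 8 rows), or the median over a marker list (lower 10 rows), minus its wild type mean, for 3 wild type and 3 Lphn2 KO libraries in columns; red is above and blue below, with colours ending at ±3. Ptprr reads 1.58 to 2.27 and Spry1 -2.34 to -1.30 in the knockout columns. Medians of trophoblast, yolk sac and erythroid markers are far lower in knockout replicates 2 and 3 than in replicate 1. Summed levels of the erythroid markers, at 1634, 1731 and 1104 CPM in knockout replicates 1, 2 and 3, do not show this.

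The other marker lists give the background to these levels. Trophoblast markers (11 of 12 tested, 0 higher and 11 lower) summed to 1688 to 7215 CPM in wild type and 66.9 to 4612 CPM in knockout libraries, and yolk sac markers (12 tested, all lower) to 427 to 747.6 and 25.5 to 199.96 CPM. Erythroid markers (10 tested, all lower) summed to 3993 to 9248 and 1104 to 1731 CPM, and macrophage markers (9 tested, 5 higher and 4 lower) to 262 to 583.5 and 267.5 to 310.6 CPM. Of the 12 decidual markers 9 were higher and 3 lower, and of the tested nervous system, cardiac and mesenchyme markers all 7, 5 and 5 were lower. These are directions only: with edgeR 0 of all these markers passed the threshold. In the order given, 0, 5, 5, 2, 9, 6, 5 and 2 had an unadjusted p under 0.05, against 15.5% of all genes tested. Pax1 was at 0 in all 3 knockout libraries.

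Beyond the 10 brakes, 124 genes of the ERK pathway were listed by role, and 105 were expressed enough to be tested. With edgeR 0 were called higher and 0 lower, against 0.0505% of all genes. An unadjusted p under 0.05 was found for 22 (21.0%, against 15.5% of all genes tested), 13 higher and 9 lower. Groups did not overlap in 29 of the 105 (27.6%, against 21.5% of all genes tested), 16 higher and 13 lower in the knockout. Their median log2 difference was -0.06, with 45 positive and 60 negative. Over all genes tested 46.6% were positive, a share to set beside the direction counts of the lists below. DESeq2 called 11 of the 105, 8 higher and 3 lower, against 6.19% of all genes, and limma-voom called 0, against 0.0505%.

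Receptors and ligands showed both directions. Of 16 tested receptor tyrosine kinases 6 had positive and 10 negative differences (median -0.15). Of these 2 and 2 had an unadjusted p under 0.05 with edgeR, against 15.5% of all genes tested. Kit, the stem cell factor receptor, stood at 54.8, 74.5 and 56.0 CPM in wild type and 117, 236 and 185 CPM in knockout libraries, 1.54 ± 0.29 (SE) on the log2 scale (edgeR adjusted p = 0.166). Fgfr2, a fibroblast growth factor receptor, averaged 48.6 ± 7.19 and 87.7 ± 15.2 CPM (edgeR adjusted p = 0.172). For neither did the groups overlap. Of 26 ligands 12 were tested, 5 with positive and 7 with negative differences (median -0.24). The platelet-derived growth factor genes parted: Pdgfc averaged 13.5 ± 3.37 and 31.2 ± 4.91 CPM and Pdgfa 12.0 ± 1.79 and 6.19 ± 2.30 CPM (edgeR adjusted p of 0.166 and 0.251), and neither pair of groups overlapped.

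The core of the cascade had both directions. Of 24 tested genes for adaptors, RAS, RAF, MEK, ERK and RSK proteins, 14 had positive and 10 negative differences, with a median of 0.09. Shc1, an adaptor at activated receptors, averaged 201 ± 52.5 and 351 ± 64.95 CPM, and Rps6ka3, a kinase downstream of ERK, 25.5 ± 0.481 and 38.9 ± 7.504 CPM (edgeR adjusted p of 0.213 and 0.222). Mapk3, an ERK kinase gene named after its values were seen, differed by 0.40 ± 0.18 (SE) on the log2 scale (edgeR adjusted p = 0.339). Of 11 genes for JNK and p38 kinases and the kinases that activate them, 9 had negative differences (median -0.18). Mapk13, a p38 kinase, was at 5.76, 13.3 and 6.27 CPM in wild type and 1.49, 0 and 1.07 CPM in knockout libraries, and Mapk9, a JNK, averaged 79.7 ± 3.56 and 56.1 ± 8.71 CPM (edgeR adjusted p of 0.217 and 0.243).

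Other negative regulators of receptors, RAS and RAF had no common direction. Of 15 tested, 6 had positive and 9 negative differences (median -0.32). Cblb, a ubiquitin ligase that removes active receptors, was at 21.6, 28.1 and 25.9 CPM in wild type and 44.2, 63.7 and 49.9 CPM in knockout libraries, 1.06 ± 0.20 (SE) on the log2 scale. Lrig1, which limits epidermal growth factor receptors, was at 4.24, 2.99 and 4.81 CPM and at 1.25, 1.33 and 0.570 CPM, -1.92 ± 0.49. Both had groups that did not overlap, in opposite directions, and neither passed (edgeR adjusted p of 0.166 and 0.176).

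Of the 5 other MAP kinase phosphatases 1 had a positive and 4 a negative difference (median -0.47). No pair of groups stood apart, against 21.5% of all genes tested, and with 5 genes nothing is read from this. Dusp10, which acts on JNK and p38, averaged 4.78 ± 2.35 and 2.40 ± 0.835 CPM, and Dusp7, a cytoplasmic ERK phosphatase, 13.6 ± 3.63 and 9.84 ± 1.96 CPM (edgeR adjusted p of 0.396 and 0.479). Dusp9, a phosphatase needed in the mouse placenta and named after its values were seen, was at 110, 131 and 37.1 CPM in wild type and at 108, 0.800 and 3.78 CPM in knockout libraries. It was high where trophoblast markers were high (6067, 7215 and 1688 CPM, then 4612, 66.9 and 164 CPM), whose part in its level was not tested.

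Genes that ERK induces gave no common direction either. All 18 were tested, 9 with positive and 9 with negative differences (median 0.01). Junb, an AP-1 subunit, was at 108, 165 and 101 CPM in wild type and 223, 367.5 and 279 CPM in knockout libraries, 1.22 ± 0.27 (SE) on the log2 scale. Etv5, an ETS factor downstream of fibroblast growth factors, was at 14.3, 13.8 and 22.4 CPM and at 8.27, 6.67 and 6.13 CPM, -1.26 ± 0.28. Neither set of groups overlapped, and neither gene passed (edgeR adjusted p = 0.167 for each). Its relatives Etv1 and Etv4, and the immediate early genes Fos and Egr1, all named after their values were seen, differed by -0.06, -0.20, 0.38 and -0.21 on the log2 scale, none past the threshold (edgeR adjusted p of 0.536 to 0.957). Like Spry1, Etv5 was lower in every knockout library, while Spry2, Spry4 and Dusp6, commonly read beside them, overlapped between the groups.

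**Figure D4:**
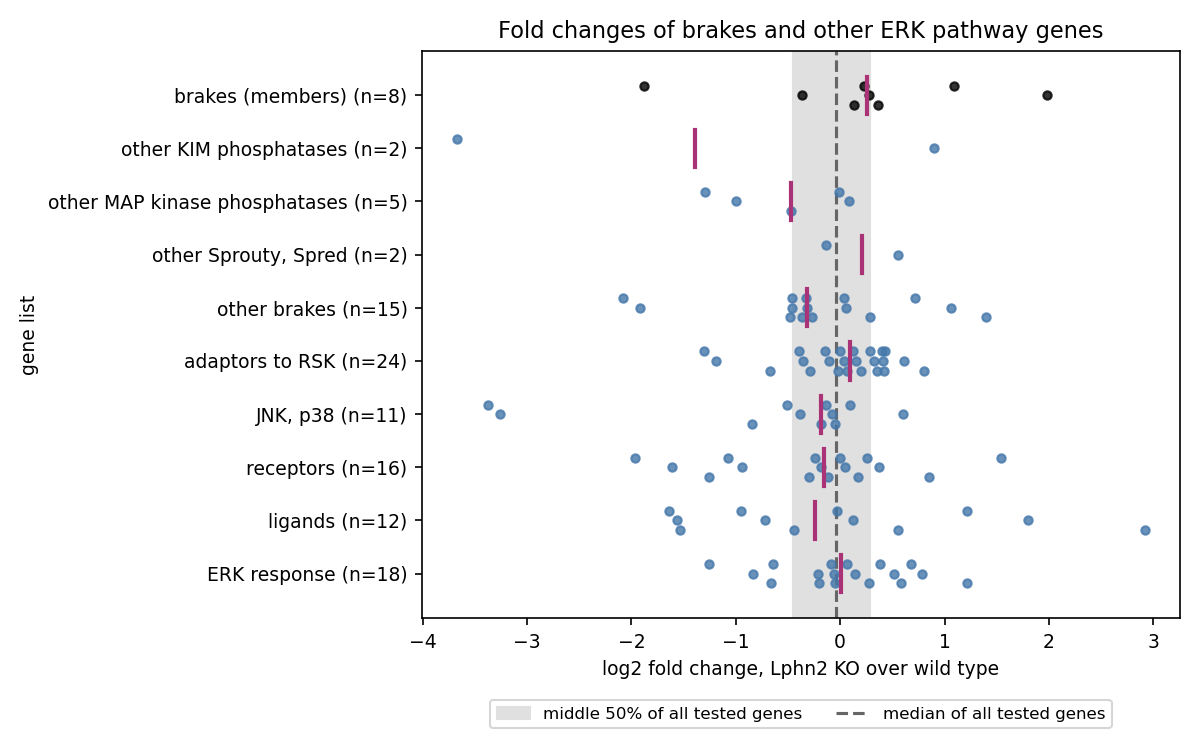
Log2 fold change of Lphn2 KO over wild type (horizontal axis) for each tested gene, in rows by list, with the 8 tested brakes in black and other pathway genes in blue; purple bars are list medians, the dashed line is the median of all 13848 tested genes and the grey band their middle 50%. List medians lie near the dashed line, from -0.47 to 0.25, except for the other phosphatases with a kinase interaction motif, a list of 2 genes, and single genes spread to either side.

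**Figure D5:**
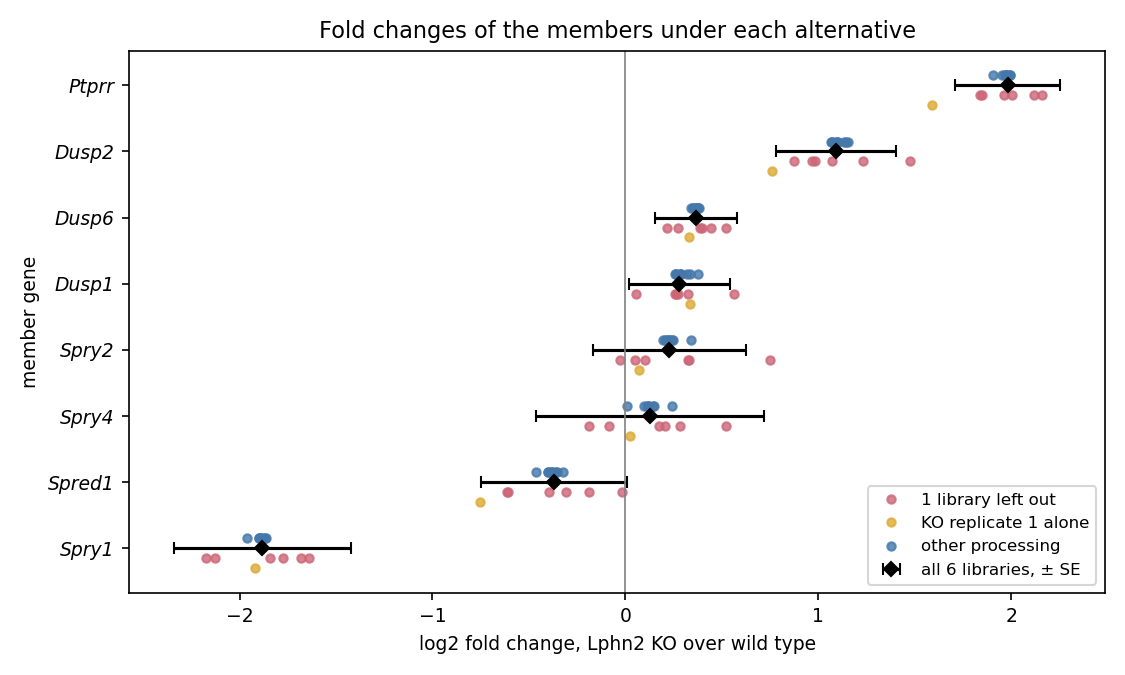
Log2 fold change of Lphn2 KO over wild type (horizontal axis) for the 8 tested genes: black diamonds with SE bars use all 6 libraries, red points leave out 1 library, yellow points use knockout replicate 1 as the only knockout library, and blue points change the scaling, filter, tool, block or divisor. Ptprr stays between 1.59 and 2.16, Dusp2 between 0.76 and 1.47 and Spry1 between -2.17 and -1.64, while Spry2 and Spry4 have points on both sides of 0.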

How the data were processed

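Tags from the 3' ends of transcripts were counted in 3 wild type and 3 Lphn2 KO libraries. The authors deposited whole-number counts per gene symbol, not normalized. Bowtie2, edgeR and the build mm10 are named, per the submitters' processing notes; their roles, and the annotation, counting program and strand handling, are unstated (not given in the sources used here). Low genes were removed by edgeR's filterByExpr (version 4.0.16, minimum count 10), libraries were scaled by TMM, and groups were compared by the quasi-likelihood test with no covariate (R 4.3.3), with p-values adjusted over all 13848 genes (Benjamini-Hochberg, threshold 0.05). SEs are the log2 fold change over the root of F. The fit was tested on simulated data. Positions are from GENCODE M21 (mm10), sequences from RefSeq.

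The members and lists (9 by pathway role, 10 of cell type markers) were chosen with earlier results of these data known. All members are named. From each pathway list genes past the threshold are named or, with none, the 2 with the smallest p. Genes like Ptprr are the 5 with the highest r of log2 CPM (prior count 2), predicted symbols left out. Alternatives were other scalings and filters, DESeq2 1.42.0, limma-voom (limma 3.58.1), a replicate block, the common divisor removed and each library left out. Knockout replicate 1 alone against wild type was added after seeing the data.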

Additional observations from a re-analysis of the deposited data

How the results depend on the processing

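Over the 16 alternatives, or 15 where a gene was filtered out, the log2 differences of Ptprr, Dusp1, Dusp2, Dusp6, Spry1 and Spred1 kept their sign. Spry2 kept it in 15 of 16 and Spry4 in 13 of 15. With DESeq2, 387 genes were lower and 470 higher, 6.19% of all, and 3 brakes and 11 pathway genes passed. Counts over the brakes are descriptions, since this contrast chose them. With 1 library left out, the counts ranged from 0 to 466 genes lower and 0 to 252 higher, 0 to 1 brakes and 0 to 8 pathway genes past the threshold, and 3 to 4 of 8 brakes with groups apart, against 25.4% to 45.5% of all genes. The highest of these counts of calls came without knockout replicate 1, where 5.04% of all genes passed; the cause was not tested. With that replicate as the only knockout library, assumed to vary like wild type, 0 genes were lower and 6 of 9 brakes had groups apart, against 43.7% of all genes. Spred2 (-0.14) ran from -0.31 to 0.064 with 1 library left out, turning without wild type replicate 3.

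The code in the sample descriptions begins with 32 for wild type replicate 1 and with 45 for the other 5, with no meaning stated. Without that replicate 4 of 8 brakes had groups apart, against 30.1% of all genes. With the replicate number as a block, 0 genes were lower and 0 of the brakes passed. Same-numbered samples had correlations of deviations of 0.127, -0.024 and 0.071, where all pairs ran from -0.107 to 0.127. With 3 libraries in each group these values cannot show whether same-numbered samples were paired, and the sources used here do not say. Depth limits Dusp4 and Spry4, and Spry1 if its divisor counts.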
